A study of Mus musculus with 9 samples.

Results

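Hyaluronan is a long, unsulfated chain of alternating glucuronic acid and N-acetylglucosamine that fills the space between cells. The transcripts of 8 genes that make, break or bind it were followed here. Has1, Has2 and Has3 encode the synthases, Hyal1, Hyal2 and Cemip encode proteins of its breakdown, and Cd44 and Vcan encode a receptor and a proteoglycan that hold it. The 8 were chosen by name and function from the 49315 gene identifiers of the count table, with earlier results of these data known. All 8 passed the filter on low counts that left 18211 genes for testing.

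The cells were mouse pancreatic stellate cells, fibroblast-like cells of the pancreas that lay down matrix when activated. They came from C57BL6 mice and had become immortal by spontaneous outgrowth. All carried lentiviral Cas9 with 1 guide RNA, had passed puromycin selection and were used as uncloned pools. The 3 groups of 3 poly-A RNA libraries were R26 normoxia (control guide R26-sg1, kept for 48 h in 20% oxygen), R26 hypoxia (same guide, 48 h in 0.5% oxygen) and HIF1a-ko hypoxia (Hif1a guide HIF1a-sg2, 48 h in 0.5% oxygen). Guides to R26, the Rosa26 locus, serve as cutting controls. HIF-1, the transcription factor that low oxygen stabilises, takes its oxygen-sensitive subunit from Hif1a. Cells with the Hif1a guide at 20% oxygen were not analysed here, so an effect of that guide apart from hypoxia cannot be told apart from its effect in hypoxia. Whether the libraries of 1 group are separate cultures is not in the labels, so p-values here reflect the spread among these libraries alone, which could be technical.

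Synthases sit in the plasma membrane, take up the activated sugars UDP-glucuronic acid and UDP-N-acetylglucosamine in the cytosol and push the growing chain out of the cell. Outside, HYAL2 at the cell surface cuts long chains into shorter ones, HYAL1 in the lysosome cuts those further, and CEMIP is required for hyaluronan breakdown in fibroblasts. CD44 anchors hyaluronan to the cell surface, and versican, the product of Vcan, is a large chondroitin sulfate proteoglycan that binds it in the matrix. Hyaluronan is abundant in the stroma of pancreatic cancer, where fibroblasts and stellate cells are among its sources.

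Total counts per library ran from 43837809 to 107840223, and 1 library of each group (replicate 3 of both R26 groups and replicate 1 of HIF1a-ko hypoxia) was sequenced more deeply than the other 2. Counts of the 8 genes ran from 206 (Has3 in HIF1a-ko hypoxia 3) to 56636 (Vcan in R26 hypoxia 3). Hif1a was at 192.4 to 224.8 CPM (counts scaled to a library of fixed size) in R26 normoxia, at 168.7 to 207.1 in R26 hypoxia and at 116.9 to 125 in HIF1a-ko hypoxia, below both R26 groups in every library. Since edited genes can still be transcribed, the level is a weak check of the labels. Of 11 stellate or fibroblast markers all were tested, and their summed level was 17545.6 to 19255.2 CPM in R26 normoxia, 19780.7 to 21321.8 in R26 hypoxia and 13480.9 to 13943.2 in HIF1a-ko hypoxia. Means of Col1a1, Col1a2, Col3a1, Pdgfrb, Pdgfra and Vim had this order, but the list did not move as a whole. Acta2 (1520.5, 786.5 and 1142.6 CPM), Dcn (733.4, 349 and 342.1 CPM) and Lum were highest in R26 normoxia on average. Thy1 (346.3, 382.4 and 400.2 CPM) and Des were highest in HIF1a-ko hypoxia. Desmin (Des), a defining marker of stellate cells, was low, at 0.246 to 3.73 CPM, as was lumican (Lum) at 0.236 to 4.04 CPM. Summed epithelial markers were at 15.66 to 69.9 CPM in R26 normoxia, at 46.5 to 106.6 CPM in R26 hypoxia and at 14.15 to 59.1 CPM in HIF1a-ko hypoxia. Of these Krt19, an epithelial keratin gene, averaged 19.2, 54.7 and 17.8 CPM, so it was highest in R26 hypoxia, as Vcan and Layn were. The epithelial list did not move as a whole. Krt18 and Muc1 were also highest in R26 hypoxia on average. Cdh1 (7.16, 4.41 and 5.73 CPM) and Epcam (3.08, 2.31 and 3.75 CPM) were lowest there, and Krt8 averaged 13.2, 12.2 and 12.2 CPM. By depth the epithelial sum was 14.15 to 46.5 CPM in the deeper libraries and 56.9 to 106.6 CPM in the shallower ones, and the leukocyte sum 10.7 to 20 CPM and 39.6 to 64.1 CPM. The part of such transcripts in the results below was not tested.

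Between R26 hypoxia and R26 normoxia, Cemip fell 2.08-fold and Vcan rose 1.41-fold, and the other 6 genes did not pass the test in the fit without pairing. With the replicate number as a block (same-numbered R26 libraries deviated together, as did the deeper libraries of any number), Hyal1 (adjusted p = 0.00527) was also called higher. Has1 (adjusted p = 0.0127) and Cd44 (adjusted p = 0.0176) were called lower, which made 5 of the 8 in all. That fit called 7259 of 17387 genes, and the same 2 groups without the block gave 3964 and 3 of the 8. With the Hif1a guide in hypoxia, Vcan, Has1, Has3, Hyal1 and Hyal2 were lower than in R26 hypoxia and Cemip was higher. Has2 and Cd44 passed the unpaired test in none of the 3 comparisons. Levels are CPM after scaling of the libraries by the trimmed mean of M-values (TMM), given as mean ± SD over 3 libraries. The test was edgeR's quasi-likelihood test, two-sided, with Benjamini-Hochberg adjustment over the 18211 genes, and a gene with an adjusted p under 0.05 is called changed. Most log2 fold changes are given with a standard error (SE). It was worked back from the test, as the absolute log2 fold change divided by the square root of the F statistic.

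In R26 hypoxia against R26 normoxia, 1 of the 8 genes rose and 1 fell in the unpaired fit, while 25.2% of all genes tested changed, 12.8% higher and 12.4% lower. In HIF1a-ko hypoxia against R26 hypoxia, 1 rose and 5 fell, while 45.8% of all genes changed, 22% higher and 23.8% lower. With library totals alone that balance turned, with 4665 genes higher and 3703 lower against 4004 and 4330, while the count of the 8 genes stayed at 1 higher and 5 lower. In HIF1a-ko hypoxia against R26 normoxia, none rose and 4 fell, while 41.4% of all genes changed, 19.5% higher and 21.9% lower. The median log2 fold change of the 8 genes was -0.03, -0.55 and -0.35 in these 3 comparisons, against -0.01, -0.02 and -0.01 over all genes tested. Any 2 of the comparisons share a group of libraries, so their values are not independent.

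**Figure D1:**
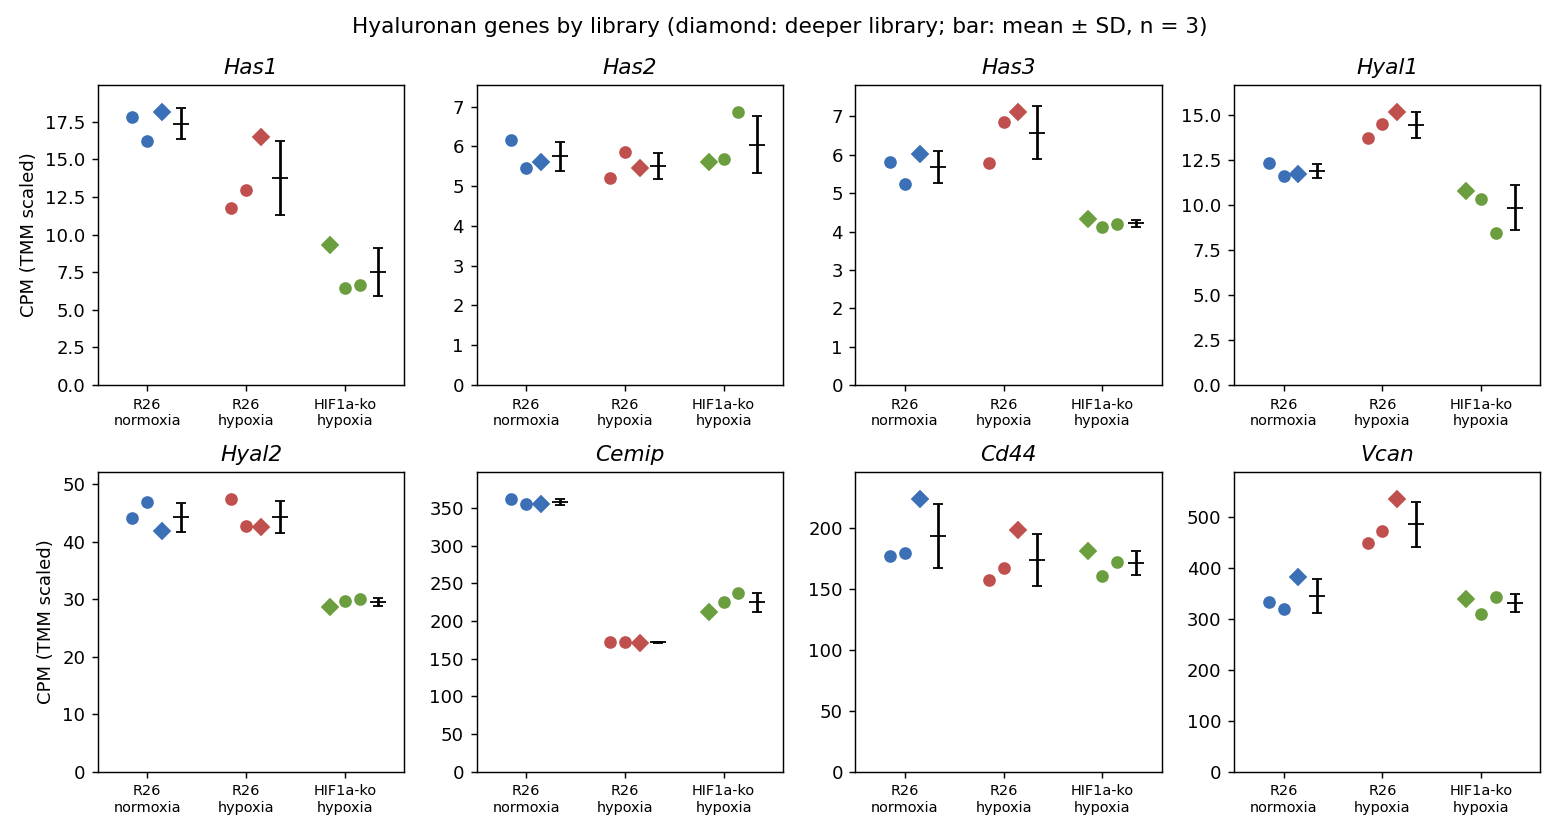
Each panel plots 1 gene, with CPM (TMM scaled) on the vertical axis from 0 and the 3 groups on the horizontal axis. Points are libraries, diamonds the deeper library of each group, and bars the mean ± SD (n = 3). Cemip stands at 355.7 to 362.2 CPM in R26 normoxia, at 171.5 to 172.5 in R26 hypoxia and at 212.1 to 237.5 in HIF1a-ko hypoxia, with no overlap between groups.

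Has1 (ENSMUSG00000003665, chromosome 17, 17843323 to 17855205, minus strand, GRCm38) was the most abundant synthase transcript in R26 cells. Has1 had 17.8, 16.2 and 18.1 CPM in the R26 normoxia libraries (1 to 3 in order), 11.8, 13 and 16.5 CPM under R26 hypoxia and 9.34, 6.47 and 6.68 CPM with the Hif1a guide. All HIF1a-ko libraries lay below all R26 libraries, and the deeper library was the highest of its group each time. Against R26 hypoxia the log2 fold change was -0.87 ± 0.16 (SE, adjusted p = 0.00182), and against R26 normoxia -1.21 ± 0.16 (adjusted p = 0.000309). Between R26 hypoxia and R26 normoxia the groups overlapped, with a log2 fold change of -0.34 ± 0.16 (adjusted p = 0.172). The same difference was called lower in the fit blocked on replicate number (-0.32, adjusted p = 0.0127), with a term for depth class, deeper or shallower (-0.34, adjusted p = 0.00786) and in the 6 shallower libraries (-0.44, adjusted p = 0.00381).

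Has1 is also known from mesothelial cells, and the sum of mesothelial markers differed between groups. Their summed level over 5 genes was 53.1 to 55.3 CPM in R26 normoxia, 74.5 to 82.8 CPM in R26 hypoxia and 39 to 41.5 CPM in HIF1a-ko hypoxia. Most of this was Wt1, which averaged 46.3, 70.5 and 28.4 CPM in these groups, while mesothelin (Msln) was at 0.349 to 1.73 CPM over all 9 libraries. Lrrn4 (0.346, 0.386 and 0.145 CPM) had the same order of means as Wt1. Upk3b (4.345, 3.49 and 7.70 CPM), Upk1b (2.36, 2.22 and 2.55 CPM) and Msln were instead highest in HIF1a-ko hypoxia on average. The sum and Has1 were both lowest in HIF1a-ko hypoxia, but the sum was highest in R26 hypoxia and Has1 in R26 normoxia. The part of mesothelial cells in the Has1 result was not tested.

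Has2 (ENSMUSG00000022367, chromosome 15, 56665627 to 56694539, minus strand) encodes the synthase needed for heart development in the mouse embryo. Has2 had 6.17, 5.46 and 5.62 CPM in the R26 normoxia libraries (1 to 3 in order), 5.2, 5.85 and 5.45 CPM under R26 hypoxia and 5.6, 5.68 and 6.86 CPM with the Hif1a guide. The 3 groups overlapped. Approximate 95% intervals of the log2 fold change, taken from the SE, were -0.28 to 0.15 for R26 hypoxia against R26 normoxia, -0.08 to 0.35 for HIF1a-ko hypoxia against R26 hypoxia and -0.14 to 0.29 for HIF1a-ko hypoxia against R26 normoxia. The adjusted p-values were 0.751, 0.359 and 0.659 in the same order. Intervals here and below take the multiple of the SE from a normal distribution, so they are narrower than the test itself would give. Exons of Has2 overlap those of Has2os, an antisense RNA, over 182 bp. Has2os was at 0.611 to 1.28 CPM over the 9 libraries.

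Has3 (ENSMUSG00000031910, chromosome 8, 106870242 to 106884566, plus strand) encodes the third synthase. Has3 had 5.81, 5.23 and 6.02 CPM in the R26 normoxia libraries (1 to 3 in order), 5.79, 6.84 and 7.11 CPM under R26 hypoxia and 4.32, 4.13 and 4.19 CPM with the Hif1a guide. The HIF1a-ko libraries lay close together and below both R26 groups. Has3 fell by 0.64 ± 0.11 on the log2 scale against R26 hypoxia (adjusted p = 0.000939) and by 0.43 ± 0.11 against R26 normoxia (adjusted p = 0.0102). The call against R26 normoxia was lost without R26 normoxia 3 (adjusted p = 0.0516) and with no filter on low counts (adjusted p = 0.0527). Between the R26 groups the values were 5.69 ± 0.412 and 6.58 ± 0.7 CPM (log2 fold change 0.21 ± 0.11, adjusted p = 0.197). Exons of Has3 overlap 352 bp of Chtf8 on the other strand, and Chtf8 was higher in HIF1a-ko hypoxia than in R26 hypoxia (log2 fold change 0.50, adjusted p = 1.7e-05).

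To compare levels between genes, CPM were divided by the total exon length of each gene in kilobases (CPM per kb). That length joins the exons of all annotated transcripts of a gene, whichever are expressed here. Orders and shares between genes depend on it. Within each library the 3 synthases were then set as shares of their sum, a description chosen after the values were seen. Has1 made up 62.5% to 63.9% of the sum in R26 normoxia, 54% to 60.3% in R26 hypoxia and 39.4% to 50.8% in HIF1a-ko hypoxia, with no overlap between the 3 groups. Has2 made up 21.1% to 23.1%, 21.2% to 25.9% and 32.5% to 43.1%. The share of Has3 was 14.4% to 15% in R26 normoxia, 18.4% to 20.1% in R26 hypoxia and 16.65% to 18.9% in HIF1a-ko hypoxia. The summed synthase level was 6.1 ± 0.346 CPM per kb in R26 normoxia, 5.37 ± 0.658 in R26 hypoxia and 3.75 ± 0.323 in HIF1a-ko hypoxia. It was lower in each HIF1a-ko library than in any R26 library.

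**Figure D2:**
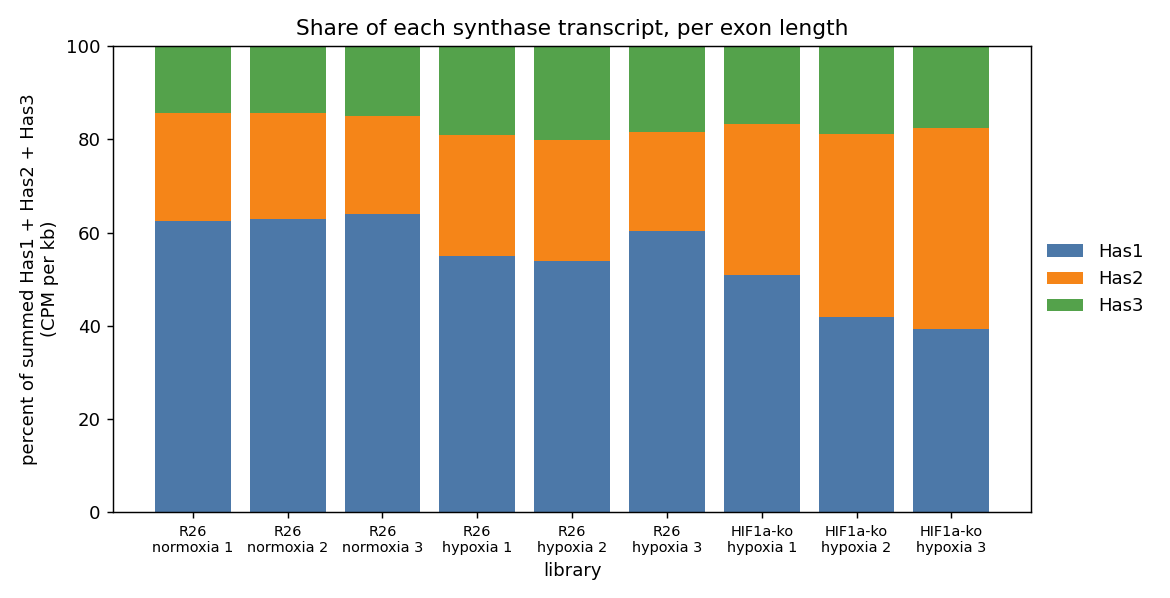
Stacked bars show, for each of the 9 libraries on the horizontal axis, the percent of the summed Has1, Has2 and Has3 level (CPM per kb of exon) that each gene holds. The Has1 share is 62.5% to 63.9% in R26 normoxia and 39.4% to 50.8% in HIF1a-ko hypoxia, where Has2 takes 32.5% to 43.1%.

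Cemip (ENSMUSG00000052353, chromosome 7, 83932857 to 84086502, minus strand) had the largest log2 fold change of the 8 genes between R26 hypoxia and R26 normoxia. Cemip had 362.2, 356.1 and 355.7 CPM in the R26 normoxia libraries (1 to 3 in order), 172.5, 172.3 and 171.5 CPM under R26 hypoxia and 212.1, 225.1 and 237.5 CPM with the Hif1a guide. Libraries of each R26 group agreed closely, and the HIF1a-ko libraries lay between the R26 groups. Cemip fell by 1.06 ± 0.05 on the log2 scale in R26 hypoxia (adjusted p = 1.15e-06). It was higher with the Hif1a guide in hypoxia by 0.39 ± 0.05 (adjusted p = 0.000124), and lower there than in R26 normoxia by a log2 fold change of -0.67 ± 0.05 (adjusted p = 4.67e-06). These 3 calls held in each of the alternative fits, the leaving out of any 1 library included. No 50-base stretch of a Cemip transcript occurred in a transcript of another gene.

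The promoters of Cemip and Vcan, which moved in opposite directions, and of Cd44, whose calls depended on the fit, are shown as the 250 bases before the RefSeq start site (GRCm38.p6, minus strand, 5′ to 3′). Capitals mark the core of the hypoxia response element that HIF-1 binds, searched as ACGTG and GCGTG on both strands (the first is also part of CACGTG, a site of other factors).
Cemip, chr7:84086506-84086755: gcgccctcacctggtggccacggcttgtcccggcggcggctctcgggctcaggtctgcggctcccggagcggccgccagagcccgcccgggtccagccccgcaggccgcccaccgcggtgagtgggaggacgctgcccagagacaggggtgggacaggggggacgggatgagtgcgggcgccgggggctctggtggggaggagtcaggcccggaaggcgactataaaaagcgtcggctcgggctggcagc
Vcan, chr13:89742513-89742762: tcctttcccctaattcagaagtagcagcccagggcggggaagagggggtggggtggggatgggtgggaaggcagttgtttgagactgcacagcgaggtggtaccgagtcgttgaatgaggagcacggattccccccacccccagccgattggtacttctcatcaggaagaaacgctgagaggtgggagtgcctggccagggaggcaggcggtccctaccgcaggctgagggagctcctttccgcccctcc
Cd44, chr2:102901666-102901915: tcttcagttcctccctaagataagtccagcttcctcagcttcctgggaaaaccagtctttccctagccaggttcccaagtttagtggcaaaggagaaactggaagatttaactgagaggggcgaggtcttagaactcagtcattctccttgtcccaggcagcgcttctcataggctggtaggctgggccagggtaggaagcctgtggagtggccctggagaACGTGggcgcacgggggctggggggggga
The Cd44 window held 1 match, which begins 29 bases before the start site, and the Cemip and Vcan windows held none. Promoters of 6 of the 8 genes were matched (all but Has2 and Has3), and the windows of Has1, Hyal1 and Hyal2 held none either. Of 32851 promoter windows of the same length in the RefSeq table, 38.6% held at least 1 match. A match describes letters, not binding, and these windows leave out distant sites.

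Hyal2 (ENSMUSG00000010047, chromosome 9, 107567945 to 107572779, plus strand) had nearly equal means in the R26 groups, 44.3 ± 2.55 CPM in R26 normoxia and 44.3 ± 2.76 CPM in R26 hypoxia. Hyal2 had 44.1, 46.9 and 41.8 CPM in the R26 normoxia libraries (1 to 3 in order), 47.5, 42.9 and 42.6 CPM under R26 hypoxia and 28.7, 29.8 and 30.1 CPM with the Hif1a guide. Every HIF1a-ko library lay below every R26 library. The log2 fold change was -0.58 ± 0.06 against R26 hypoxia (adjusted p = 4.97e-05) and -0.58 ± 0.06 against R26 normoxia (adjusted p = 6.17e-05). The interval of the difference between the R26 groups was -0.12 to 0.12 on the log2 scale (adjusted p = 0.996).

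Hyal1 (ENSMUSG00000010051, chromosome 9, 107576927 to 107581710, plus strand) lies next to Hyal2 on the same strand. Hyal1 had 12.4, 11.6 and 11.7 CPM in the R26 normoxia libraries (1 to 3 in order), 13.7, 14.5 and 15.2 CPM under R26 hypoxia and 10.8, 10.4 and 8.43 CPM with the Hif1a guide. No groups overlapped. Hyal1 fell by 0.55 ± 0.10 on the log2 scale in HIF1a-ko hypoxia against R26 hypoxia (adjusted p = 0.00125). Against R26 normoxia the log2 fold change of HIF1a-ko hypoxia was -0.27 ± 0.10 (adjusted p = 0.052), which was called lower with a term for depth class (adjusted p = 0.0192), in the 6 shallower libraries (adjusted p = 0.0241) and without HIF1a-ko hypoxia 1 (adjusted p = 0.039). The difference of R26 hypoxia from R26 normoxia was 0.28 ± 0.10 (adjusted p = 0.0613). It was called higher with the replicate block (0.31, adjusted p = 0.00527), with a term for depth class (adjusted p = 0.0173), by DESeq2 (adjusted p = 0.0309), in the fit of the 2 groups alone (adjusted p = 0.0204), and without HIF1a-ko hypoxia 1 (adjusted p = 0.0459) or 3 (adjusted p = 0.0181).

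The count of Hyal1 is uncertain. Of its 3777 exon bases 1920 also belong to exons of Naa80, an N-acetyltransferase gene on the same strand, and 49.6% of its 50-base stretches occur in Naa80 transcripts. Naa80 was at 16 to 19.9 CPM in R26 normoxia, at 20.3 to 23.3 CPM in R26 hypoxia and at 13.8 to 14.7 CPM in HIF1a-ko hypoxia. Its log2 fold changes were 0.28, -0.61 and -0.33 in the 3 comparisons, beside 0.28, -0.55 and -0.27 for Hyal1. How the authors' counting split reads between the 2 genes is not given in the sources used here, and the part of Naa80 in the Hyal1 values was not tested.

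Vcan (ENSMUSG00000021614, chromosome 13, 89655312 to 89742509, minus strand) had 333.6, 318.7 and 381.6 CPM in the R26 normoxia libraries (1 to 3 in order), 449.6, 471.9 and 535.4 CPM under R26 hypoxia and 340.0, 310.4 and 342.3 CPM with the Hif1a guide. All R26 hypoxia libraries were above all others, while R26 normoxia and HIF1a-ko hypoxia overlapped. Vcan rose by 0.49 ± 0.09 on the log2 scale in R26 hypoxia (adjusted p = 0.00292) and fell by 0.55 ± 0.09 with the Hif1a guide in hypoxia (adjusted p = 0.000583). Between HIF1a-ko hypoxia and R26 normoxia the log2 fold change was -0.06 ± 0.09 (adjusted p = 0.641, interval -0.23 to 0.11). Versican is made in splice forms that differ in their glycosaminoglycan attachment regions, and a count per gene does not separate them.

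Cd44 (ENSMUSG00000005087, chromosome 2, 102811141 to 102901665, minus strand) encodes the main hyaluronan receptor, also made in many splice forms. Cd44 had 177.6, 179.5 and 224.2 CPM in the R26 normoxia libraries (1 to 3 in order), 157.5, 167.2 and 198.4 CPM under R26 hypoxia and 181.2, 161.3 and 172.4 CPM with the Hif1a guide. The groups overlapped, and the deeper library was the highest of each group (mean 201.2 CPM in the 3 deeper and 169.3 CPM in the 6 shallower libraries). The log2 fold changes were -0.15, -0.02 and -0.18, each with an SE of 0.11 (adjusted p = 0.376, 0.888 and 0.242). The interval for the Hif1a guide in hypoxia was -0.24 to 0.19. Between R26 hypoxia and R26 normoxia Cd44 was called lower with the replicate block (-0.13, adjusted p = 0.0176) and with a term for depth class (-0.15, adjusted p = 0.0306). With that term it was also called lower in HIF1a-ko hypoxia than in R26 normoxia (-0.17, adjusted p = 0.0125). The other alternative fits called neither difference.

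The replicate block, fitted on the R26 groups alone, called 5 of the 8 genes, with 2 higher under hypoxia (Vcan and Hyal1) and 3 lower (Cemip, Has1 and Cd44). Of all genes it called 7259 of 17387, where the fit of the same 2 groups without the block called 3964 of 17387, and 3 of the 8 genes.

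**Figure D3:**
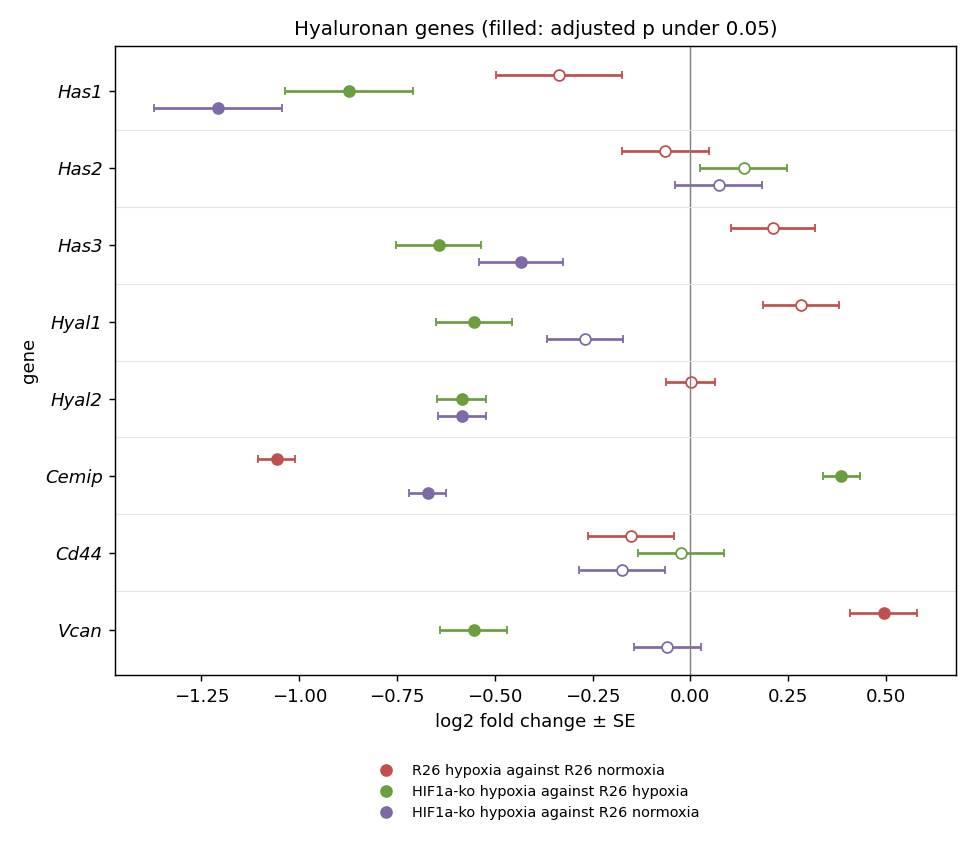
Each row is 1 of the 8 genes and the horizontal axis gives the log2 fold change with its SE for the 3 comparisons, in 3 colours. Filled points have an adjusted p under 0.05. Cemip stands at -1.06 for R26 hypoxia against R26 normoxia and at 0.39 for HIF1a-ko hypoxia against R26 hypoxia, and Vcan at 0.49 and -0.55.

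Per exon length, Vcan, Cd44, Cemip and Hyal2 each had a higher level than any synthase gene in every group. In R26 normoxia the order was Cemip (29.3 ± 0.298 CPM per kb), Cd44 (28.6 ± 3.89), Vcan (23.8 ± 2.27), Hyal2, Has1, Hyal1, Has2 and Has3 (0.891 ± 0.0646). The ranges of Cemip and Cd44 overlapped there, as did those of Cd44 and Vcan. In R26 hypoxia Vcan led at 33.6 ± 3.08 CPM per kb, followed by Cd44 at 25.7 ± 3.15. Cemip stood at 14.1 ± 0.0437 in that group, where its range overlapped that of Hyal2, and Hyal1 overlapped Has1. In HIF1a-ko hypoxia Cd44 led at 25.3 ± 1.47 CPM per kb, followed by Vcan at 22.9 ± 1.23 and Cemip at 18.4 ± 1.04, and the ranges of Has1 and Has2 overlapped.

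The ratio of Vcan to Cemip within a library does not depend on the scaling of libraries. Per kilobase of exon it was 0.757 to 0.907 in R26 normoxia, 2.205 to 2.64 in R26 hypoxia and 1.17 to 1.36 in HIF1a-ko hypoxia. The ratio of Cemip to the summed synthases was 4.63 to 5.11 in R26 normoxia, 2.32 to 2.98 in R26 hypoxia and 4.265 to 5.38 in HIF1a-ko hypoxia. In the last group both Cemip and the synthase sum were below their normoxic levels. Both ratios were chosen after the values were seen and are given as descriptions.

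**Figure D4:**
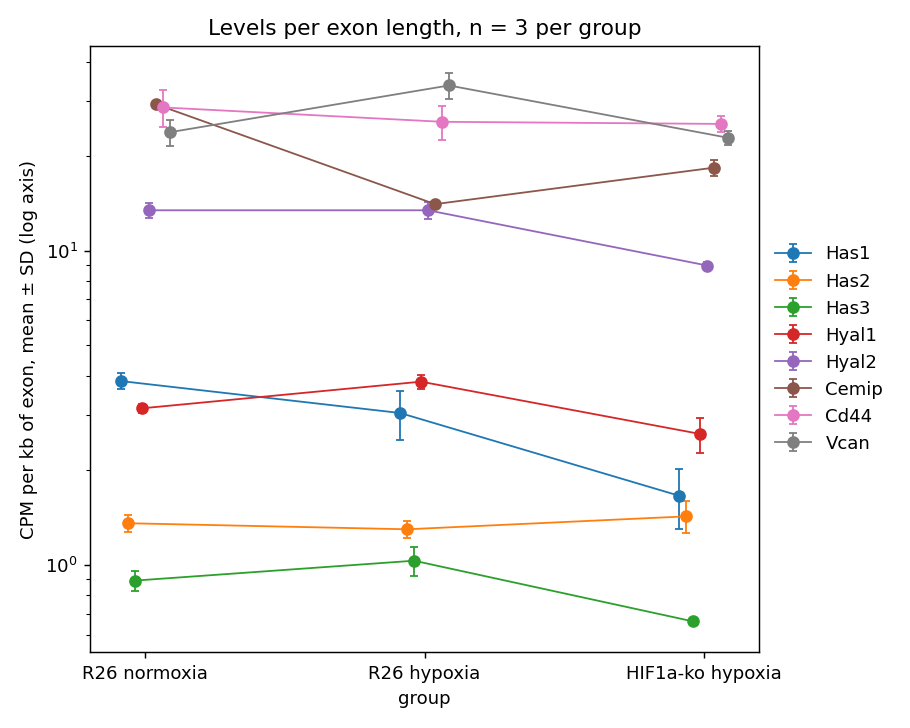
The vertical axis (logarithmic) gives the mean ± SD over 3 libraries of CPM per kb of exon, for the 8 genes in the 3 groups on the horizontal axis, and lines join the means of 1 gene. Vcan, Cd44 and Cemip lie highest, at 14.1 to 33.6 CPM per kb, and Has2 and Has3 lie at 0.66 to 1.43.

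Other genes of hyaluronan biology were read from 5 lists with 46 members, of which 33 passed the filter. In R26 hypoxia 8 of these rose and 5 fell against normoxia. With the Hif1a guide 9 rose and 10 fell against R26 hypoxia, and 7 rose and 8 fell against R26 normoxia. With library totals alone these splits were 11 and 9, and 9 and 8. Their median log2 fold changes were 0.01, -0.11 and 0.04. The shares called stand beside backgrounds of 25.2%, 45.8% and 41.4% of all genes.

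Of 8 genes that make the sugar precursors, all were tested, and 2 rose and 2 fell in R26 hypoxia (12.8% and 12.4% of all genes tested). The risers were Ugdh, whose enzyme makes UDP-glucuronic acid (a mean of 182.2 CPM in normoxia and 206.4 in hypoxia, adjusted p = 0.00605), and Ugp2, which makes the UDP-glucose it uses. Those that fell were Pgm3 and Nagk, of the N-acetylglucosamine branch. Exons of Pgm3 overlap those of Dop1a on the other strand over 1270 of 4487 bp. Each of the calls for Ugp2, Pgm3 and Nagk was lost without 1 of several libraries, for Ugp2 without R26 normoxia 1 or 2 or R26 hypoxia 3, for Pgm3 without R26 normoxia 1 or 2 or R26 hypoxia 2 or 3, and for Nagk without R26 normoxia 2 or 3 (adjusted p from 0.0531 to 0.0925). With no filter on low counts the calls of Pgm3 (adjusted p = 0.0736) and Nagk (adjusted p = 0.0745) were lost too. Pgm3 also lost its call in the fit of the 2 groups alone without the block (adjusted p = 0.0587). With the Hif1a guide in hypoxia 4 of the 8 (Ugdh, Gfpt2, Nagk and Ugp2) fell and Uap1 rose, where 23.8% of all genes tested fell and 22% rose. The call of Ugp2 (adjusted p = 0.0339) was lost with library totals alone (0.128), with no filter (0.0684), without R26 hypoxia 3 (0.0975) and without any 1 of the HIF1a-ko libraries (adjusted p from 0.051 to 0.12). Gfpt2, an isoform of the enzyme that commits glucose to the hexosamine pathway, fell most. Gfpt2 had 20.1, 20.4 and 19.1 CPM in the R26 normoxia libraries (1 to 3 in order), 23.4, 27 and 21.6 CPM under R26 hypoxia and 9.2, 10.2 and 8.98 CPM with the Hif1a guide. Its log2 fold change was -1.35 ± 0.09 against R26 hypoxia (adjusted p = 2.75e-06), while the other isoform, Gfpt1, averaged 129.3, 129.7 and 129.7 CPM in the 3 groups. Ugdh fell to a mean of 147.1 CPM (adjusted p = 4.78e-06). Ugdh, Ugp2, Pgm3, Nagk, Uap1 and Gfpt1 were named after their values were seen, to complete these counts.

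Of 9 other breakdown genes 5 were tested, and Hyal4, Hyal5, Hyal6 and Spam1, whose counts were too low, were not. Hexa, which encodes the alpha subunit of a lysosomal hexosaminidase, averaged 233.6 CPM in R26 normoxia, 222.5 CPM in R26 hypoxia and 327.4 CPM in HIF1a-ko hypoxia. It rose by 0.56 ± 0.05 on the log2 scale with the Hif1a guide in hypoxia (adjusted p = 1.7e-05). Hexa shares 10.6% of its 50-base stretches with Tmem202. Cemip2, which encodes a surface protein related to CEMIP, rose from 49.6 to 66.8 CPM in R26 hypoxia (adjusted p = 0.00288) and fell to 55.4 CPM with the Hif1a guide (adjusted p = 0.0141, and adjusted p = 0.0575 without HIF1a-ko hypoxia 2). Its relative Cemip moved the other way in both comparisons. Gusb, a lysosomal glucuronidase gene, fell from 74.4 to 58.8 CPM in R26 hypoxia (adjusted p = 0.0016) and rose to 71 CPM with the Hif1a guide (adjusted p = 0.00216). Cemip2 and Gusb were named after their values were seen.

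All 7 receptor genes were tested. Layn, which encodes the hyaluronan receptor layilin, had 41.9, 42.7 and 40.8 CPM in the R26 normoxia libraries (1 to 3 in order), 69.9, 67.9 and 72.7 CPM under R26 hypoxia and 44.2, 45.3 and 46.2 CPM with the Hif1a guide. It rose by 0.75 ± 0.04 on the log2 scale in R26 hypoxia (adjusted p = 6.52e-06) and fell by 0.63 ± 0.04 with the Hif1a guide (adjusted p = 3.17e-06). R26 hypoxia lay above both other groups for Layn, as for Vcan. Hmmr encodes a hyaluronan-binding protein that also works at the mitotic spindle. It averaged 15.2 and 19.8 CPM in the R26 groups and 91.8 CPM in HIF1a-ko hypoxia, a log2 fold change of 2.20 ± 0.15 against R26 hypoxia (adjusted p = 3.33e-06). Stab2, a scavenger receptor of sinusoidal endothelium, was low, at 2.47, 1.3 and 2.55 CPM in the 3 groups, and passed the test in the first 2 comparisons (log2 fold changes -0.92 and 0.97). Summed markers of lymphatic and sinusoidal endothelium, Stab2 among them, were at 2.4 to 8.07 CPM over the 9 libraries.

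Of 16 genes for other hyaluronan-binding proteins 8 were tested. Ptx3, a pentraxin that takes part in building hyaluronan-rich matrix, was higher in R26 hypoxia than in normoxia and higher again with the Hif1a guide, from 5.26 CPM in R26 normoxia to 12.3 CPM in R26 hypoxia (log2 fold change 1.22 ± 0.13, adjusted p = 0.000157) and to 22.2 CPM in HIF1a-ko hypoxia (0.85 ± 0.12, adjusted p = 0.000347). Hapln4, a link protein gene best known from brain, averaged 6.91, 8.03 and 15.9 CPM, and rose with the Hif1a guide by 0.98 ± 0.14 (adjusted p = 0.00034). Itih4, of the inter-alpha-trypsin inhibitor family, averaged 1.24 and 1.26 CPM in the R26 groups and fell to 0.277 CPM (log2 fold change -2.17 ± 0.20, adjusted p = 2.31e-05).

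Of 6 genes for proteases that cut versican 5 were tested, and 3 rose in R26 hypoxia, where Vcan itself was higher. Of all genes tested 12.8% rose there. Adamts5 had 35.7, 37.7 and 35.5 CPM in the R26 normoxia libraries (1 to 3 in order), 89.2, 91.1 and 88.3 CPM under R26 hypoxia and 111.1, 114.9 and 114.6 CPM with the Hif1a guide. It rose by 1.30 ± 0.04 on the log2 scale in R26 hypoxia (adjusted p = 1.37e-07) and by a further 0.34 ± 0.04 with the Hif1a guide (adjusted p = 7.63e-05). Adamts4 rose from 28.8 to 44.5 CPM in R26 hypoxia (adjusted p = 0.000683) and fell to 29.4 CPM with the Hif1a guide (adjusted p = 0.000298). Adamts9 rose from 35.2 to 49.2 CPM (adjusted p = 0.000931) and fell to 22.8 CPM (adjusted p = 1.6e-06), and shares 10.5% of its 50-base stretches with 2 other annotated genes. With the Hif1a guide in hypoxia Adamts15 fell from 3 to 1.36 CPM (adjusted p = 0.00168), and Adamts1 rose from 67.3 to 85.5 CPM (adjusted p = 0.00968). The versican proteases therefore did not move in 1 direction in HIF1a-ko hypoxia, with 2 higher and 3 lower than in R26 hypoxia. Of all genes tested 22% were higher and 23.8% lower in that comparison.

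**Figure D5:**
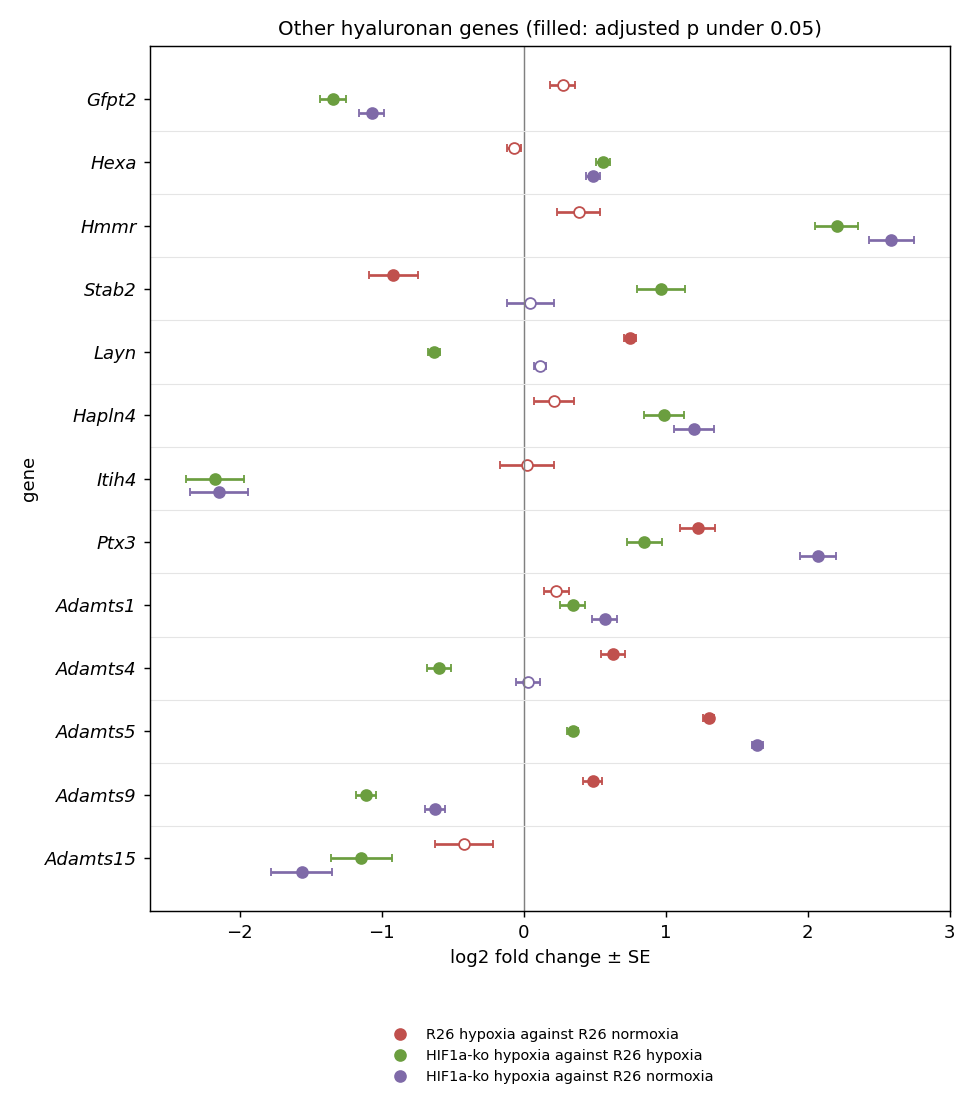
Each row is 1 of the 13 other genes named by the rule, and the horizontal axis gives the log2 fold change with its SE for the 3 comparisons, with filled points at an adjusted p under 0.05. Hmmr stands at 2.20 and Itih4 at -2.17 for HIF1a-ko hypoxia against R26 hypoxia, and Adamts5 at 1.30 for R26 hypoxia against R26 normoxia.

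The genes whose profile was most like that of a member were found by the root mean square distance between log2 profiles over the 9 libraries, each centred on its own mean. For Cemip, among 9677 genes, they were Etv4, Pald1 and Rerg, at distances of 0.075, 0.077 and 0.088, against a median distance of 0.474. Etv4, a transcription factor gene, averaged 16.4, 8.09 and 10.5 CPM in the 3 groups. For Vcan they were Rbpj, Casd1 and Seh1l, at 0.04 to 0.051 against a median of 0.318, and Rbpj, the DNA-binding factor of Notch signalling, averaged 135.5, 197.2 and 128.3 CPM. For Hyal2 they were Slc2a9, Adck5 and Spout1 (0.024 to 0.035, median 0.318). For Cd44 they were Rest, Hdac4 and Micu3 (0.037 to 0.043, median 0.23), and for Has2, with 9678 genes compared, Kctd3, Zfp84 and Rnf144b (0.06 to 0.071, median 0.213). The root mean square of a member's own centred profile was 0.103 for Has2, 0.148 for Cd44, 0.265 for Vcan, 0.277 for Hyal2 and 0.438 for Cemip. A profile that varies little lies close to any other flat one, so the distances say least for Has2 and Cd44. A short distance describes likeness over these 9 libraries, which share groups and depth classes.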

How the data were processed

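Poly-A RNA was sequenced in 9 libraries. The authors deposited raw read counts, 1 whole number for each Ensembl gene and library. Build GRCm38 and the tools STAR, featureCounts, Trimmomatic, bcl2fastq 2.17 and DESeq2 are named in the submitters' processing notes, without roles or settings. Annotation release, strand setting and treatment of multi-mapped reads: not given in the sources used here, so overlapping and antisense genes may share reads. Columns were assigned to samples through their titles. Of 49315 identifiers 48970 were paired with a GENCODE M21 symbol.

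Counts were fitted in edgeR 4.0.16 (R 4.3.3) with glmQLFit and glmQLFTest, TMM factors, filterByExpr, all 9 libraries and group as the only term. DESeq2 1.42.0 was an alternative, as were other scaling, no filter, each library left out, the replicate block, the 2 groups alone, depth class as a term and the 6 shallower libraries. Depth class (the deepest library of each group) was made from the data. The fit was tested on simulated data for R26 hypoxia against R26 normoxia over 18211 genes, where it recovered 81 of 100 genes changed by 1 on the log2 scale and 99 of 100 changed by 2, with 12 false calls. Simulated counts were drawn independently for each library, with spread from the fitted trend. Changes were planted only in genes with a mean above 1 CPM. The simulation held no depth or replicate structure, so its rates cannot be carried over to the real libraries.

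Replicate numbers are shared between groups. Deviations of same-numbered libraries from their group means correlated at 0.624, 0.613 and 0.882 between the R26 groups over 9382 genes. The replicate block was fitted because of these values. They do not establish pairing, and the labels give none. Replicate 3 is the deeper library of both groups, and hypoxia 1 correlated as closely with normoxia 2 (0.634) as with normoxia 1. HIF1a-ko hypoxia 1, also a deeper library, correlated at 0.692 with R26 hypoxia 3 and at 0.726 with R26 normoxia 3. Pairing by number and depth class therefore cannot be told apart between the R26 groups.

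The 8 genes and the lists were chosen with earlier results of these data known. The rule named the 8 genes, every other listed gene changed in any comparison by at least 0.5 on the log2 scale, and the 3 nearest profiles of 5 members (log2 of CPM plus 0.5, average log2 CPM of at least 3). No 2 libraries of a group agreed within sampling noise (chi-square per degree of freedom 6.73 to 69.9). Promoters are from RefSeq, GRCm38.p6.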

Additional observations from a re-analysis of the deposited data

How the results depend on the processing

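Of 408 refitted log2 fold changes of the 8 genes, 381 kept their direction and side of the threshold, 15 passed it anew, 2 lost it and 10 turned direction. The other listed genes were followed only in comparisons where the main fit called them, so they could not gain a call. Of their 799 refitted values 779 kept both and 20 lost the call. Between R26 hypoxia and R26 normoxia 13 of the 33 tested were called in the main fit. It was 19 with the replicate block and 10 to 14 with any 1 library left out. The turns concern values near 0 that passed no test. Hyal2 in R26 hypoxia against R26 normoxia stood at -0.0158 with library totals alone and at -0.0505 to 0.0452 with any 1 library left out. Cd44 in HIF1a-ko hypoxia against R26 hypoxia stood at 0.041 with library totals alone, at 0.0428 in the 6 shallower libraries and at -0.0919 to 0.0778 with any 1 library left out. Vcan in HIF1a-ko hypoxia against R26 normoxia stood at 0.0212 in the 6 shallower libraries and at -0.1125 to 0.046 with any 1 library left out. Between R26 hypoxia and R26 normoxia, the replicate block gave 7259 changed genes and 5 changed among the 8 genes, where the same 2 groups without the block gave 3964 and 3. Depth class as a term gave 6959 and 5, where all 9 libraries without it gave 4591 and 2; the cause was not tested. With any 1 library left out, 3287 to 4373 genes and 2 to 3 of the 8 changed in that comparison, 7195 to 8400 and 6 for the Hif1a guide in hypoxia, and 6309 to 7995 and 3 to 5 for HIF1a-ko hypoxia against R26 normoxia. Same-numbered HIF1a-ko and R26 libraries correlated at -0.619 to 0.536, so the numbers do not pair them; there the replicate block cost the call of Adamts1 against R26 hypoxia (log2 fold change 0.33, adjusted p = 0.0712), and changed no call of the 8 genes. Other scaling moved the median of all genes by at most 0.0645 on the log2 scale; library totals alone also turned the balance of calls for HIF1a-ko hypoxia against R26 normoxia (4024 higher and 3418 lower, from 3552 and 3996) and for R26 hypoxia against R26 normoxia (2143 and 2487, from 2328 and 2263). Has2 and Has3 had the lowest counts of the 8 genes, and the sequence that Hyal1 shares with Naa80 limits its value.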
